A study of Mus musculus with 9 samples.

Results

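An induced pluripotent stem (iPS) cell line of the mouse was compared, gene by gene, with the fibroblasts that serve as the starting cells of the same reprogramming system. The comparison used 6 of the 9 arrays of the series, 3 titled as the iPS line and 3 titled as fibroblasts, and covered 19937 genes, all those that the array's probe table names by a row with exactly 1 gene symbol. Every cell came from the strain OG2-GFP/Rosa26-M2rtTA. By that name it carries an OG2-GFP reporter and, at Rosa26, the doxycycline-dependent transactivator M2rtTA. The fibroblasts were taken at passage 4 from TSKM-iPS mice, where TSKM stands for Tet1, Sox2, Klf4 and c-Myc, and were grown in feeder medium, so that the starting cells already carry the inducible factors. The iPS cells, at passages 10 to 15, came from the TSKM secondary reprogramming system, induced by the same 4 factors. They grew on feeder layers of mouse embryonic fibroblasts (MEFs) stopped with mitomycin C, in embryonic stem cell medium with LIF, and feeders were removed before RNA extraction by letting them settle on a dish for 0.5 h. The line is a single one, and passage, medium and feeder layer differ between the 2 groups together with the cell state, so these cannot be told apart. The label for cell type of the third fibroblast array reads 3-days induced, whereas its title, source and passage name the fibroblast, and it was kept as a fibroblast. No label states that the 3 arrays of a group were separate cultures, so p-values measure only the spread between arrays, which may be technical.

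Reprogramming replaces the transcriptional programme of a differentiated cell by that of the early embryo. Pluripotent cells hold themselves in that state with a network of transcription factors around Oct4 (Pou5f1), Nanog and Sox2, which bind many of their own genes, while fibroblasts are mesenchymal cells that build collagen matrix, contract through actin stress fibres and are shaped by TGF-beta and by factors of the EMT (the epithelial-to-mesenchymal transition). The change of state involves a return from mesenchymal to epithelial organisation, a fast cell cycle with little braking by the RB pathway, and a chromatin state in which genes of the germ line are partly derepressed.

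Regulatory sequences of several groups described further on are shown first. In each a motif is marked that most listed members with a promoter did not hold. The genes printed are among those that held it. Promoter windows, from 250 bases before to 50 bases after the start, were found in RefSeq (GRCm38.p6) for 15613 of the 19937 genes, using the first window listed for a gene. Only bases upstream of the start are printed, 5′ to 3′ on the strand of the gene, and matches were counted on both strands of the whole window. The first is the window of Nanog (chr6:122707239-122707488, plus strand), one of the genes that rose furthest. Its capitals mark an octamer core, ATGCAAA, read on the opposite strand 75 to 69 bases upstream of the start, and 1 base further a SOX motif, CATTGT, also on the opposite strand, 67 to 62 bases upstream; this pair is known as the binding site of Oct4 with Sox2.
Nanog: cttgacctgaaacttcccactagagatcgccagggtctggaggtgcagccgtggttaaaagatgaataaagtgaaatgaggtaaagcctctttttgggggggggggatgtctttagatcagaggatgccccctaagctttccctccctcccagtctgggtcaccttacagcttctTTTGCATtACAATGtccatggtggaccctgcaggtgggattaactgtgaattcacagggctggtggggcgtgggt
Of the 14 listed core and naive pluripotency factors with a promoter, 2 held ATGCAAA and 2 held CATTGT. Upstream of the start, Tfcp2l1, Utf1 and Pou5f1 held neither. Across all promoters 4.11% held ATGCAAA and 10.3% held CATTGT, against 4.28% and 8.3% of the 1168 promoters of genes higher in iPS cells. The shares among all genes called higher lay near those over all promoters, and a match is a description, not a bound site.

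Germ-line genes are shown because 15 of the 36 listed members with a promoter held the E-box CACGTG, 41.7%, against 8.38% of all promoters. The 5 printed here are members called higher in iPS cells with the E-box, in capitals, upstream of the start. They were taken in the order of the fitted difference, which is no measured size for Sycp3, dim in both groups. They encode the axial element protein of meiotic chromosomes Sycp3 (chr10:88459508-88459585), the piRNA factor Mael (chr1:166238926-166238994, minus strand), the meiotic cohesin Stag3 (chr5:138280303-138280380), the egg coat protein Zp3 (chr5:135979888-135979965) and the germ-cell helicase Ddx4 (chr13:112652311-112652375, minus strand).
Sycp3: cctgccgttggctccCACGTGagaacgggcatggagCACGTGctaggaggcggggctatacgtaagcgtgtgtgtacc
Mael: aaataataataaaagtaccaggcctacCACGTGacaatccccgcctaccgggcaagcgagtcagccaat
Stag3: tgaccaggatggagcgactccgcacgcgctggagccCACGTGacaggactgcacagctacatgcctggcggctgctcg
Zp3: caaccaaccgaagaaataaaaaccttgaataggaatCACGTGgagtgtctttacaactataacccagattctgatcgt
Ddx4: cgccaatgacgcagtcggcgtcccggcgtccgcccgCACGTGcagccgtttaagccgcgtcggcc
Of the germ-line promoters of members called higher, 7 of 15 held the E-box, and of those not called, 8 of 21 did. The E-box was present in members that rose and in members that did not. Among all genes called higher it was found in 12.9%, and among those called lower in 8.11%.

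Replication genes are shown for an E2F motif, TTTNNCGC, where N is any base. It lay in 16 of 40 listed members with a promoter, 40%, against 6.67% of all promoters. Capitals mark it in the DNA methylation maintenance factor Uhrf1 (chr17:56303245-56303324), the origin recognition subunit Orc1 (chr4:108579391-108579453), the helicase loader Cdc6 (chr11:98907977-98908056) and the helicase subunit Mcm6 (chr1:128359709-128359788, minus strand), the members with it upstream of the start that rose most.
Uhrf1: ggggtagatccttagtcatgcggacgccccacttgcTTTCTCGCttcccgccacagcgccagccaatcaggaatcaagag
Orc1: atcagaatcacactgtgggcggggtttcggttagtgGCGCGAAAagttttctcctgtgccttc
Cdc6: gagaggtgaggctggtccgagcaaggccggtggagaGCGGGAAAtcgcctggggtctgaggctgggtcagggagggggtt
Mcm6: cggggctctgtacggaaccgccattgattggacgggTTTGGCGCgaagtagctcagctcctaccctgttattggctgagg
The motif was present in 11 of 22 replication genes called higher and in 5 of 18 not called. In Orc1 and Cdc6 it reads on the opposite strand.

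Actin and contractile genes are shown for the CArG box, the element bound by serum response factor. It lay in 5 of 29 listed members with a promoter, 17.2%, against 1.42% of all promoters. All 5 were among the 21 members called lower, with 0 among the 8 others, a difference that was not tested. Among all genes called lower 1.72% of promoters held the box, near the 1.42% among genes not called. Capitals mark it in the LIM-domain genes Fhl2 (chr1:43196812-43196893, minus strand) and Fhl1 (chrX:56779545-56779626), the calponin gene Cnn2 (chr10:79988508-79988589) and the myosin light chain gene Myl9 (chr2:156775267-156775348).
Fhl2: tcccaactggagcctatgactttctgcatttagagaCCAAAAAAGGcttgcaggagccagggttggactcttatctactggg
Cnn2: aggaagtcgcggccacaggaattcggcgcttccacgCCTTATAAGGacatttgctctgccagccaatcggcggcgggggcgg
Myl9: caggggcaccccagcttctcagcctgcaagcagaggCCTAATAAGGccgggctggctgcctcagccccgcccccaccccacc
Fhl1: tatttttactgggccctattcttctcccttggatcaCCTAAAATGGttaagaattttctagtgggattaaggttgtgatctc
Base composition was compared as well. The median promoter window held 60% G and C in genes called higher, 62.67% in genes called lower and 56.33% in genes not called.

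The levels are the deposited log2 values, on which 1 unit is a 2-fold difference, and levels of different genes are not compared with each other. The dimmest useful level was taken from 1027 olfactory receptor genes, which are rarely transcribed outside the nose: their 95th percentile lay at 5.39 on the log2 scale as the mean of the fibroblast arrays and at 5.59 on the iPS arrays. A gene whose group mean was below that level is called dim here. A gene was called higher or lower when its limma adjusted p, by Benjamini-Hochberg over all genes, was under 0.05 and its difference reached 2-fold. Every one of the 4283 genes that reached 2-fold also had an adjusted p under 0.05, the largest being 0.00966, so the fold alone set the calls.

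The labels were checked against marker genes. All 10 pluripotency markers (Pou5f1, Nanog, Sox2, Esrrb, Zfp42, Dppa5a, Tdgf1, Fbxo15, Cdh1 and Epcam) were above the dim level in iPS cells, with means from 8.43 to 12.64, and all 10 were higher there than in fibroblasts, where 7 were dim. Of 10 fibroblast markers all were above the dim level in fibroblasts, and 8 were lower in iPS cells. The exceptions were the type I collagen genes Col1a1 and Col1a2. In iPS cells 9 of the 10 fibroblast markers still read above the dim level, and their summed level on the linear scale was 9748 to 11332 on the iPS arrays against 33222 to 34720 on the fibroblast arrays.

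Genes lower in the iPS line outnumbered those higher. Of 19937 genes 1522 (7.63%) were higher and 2761 (13.8%) lower, together 21.5%. Counts of list members below stand against these shares. The 3 iPS arrays lay wholly above the 3 fibroblast arrays for 33.1% of genes and wholly below for 31.8%, and no called gene had overlapping arrays. Most genes moved little: 64.8% had means within 1.5-fold of each other. Between 2-fold and 4-fold there were 1113 rises and 1863 falls. Of the genes past 32-fold many were dim in 1 group, where the fitted fold is no measured size, so these are given as bounds. A fold that starts or ends just above the dim level is also an uncertain size. Of the rises 255 were in genes dim in fibroblasts and above the dim level in iPS cells. Most calls were graded: 1239 rises and 2448 falls were in genes above the dim level in both groups, and 39 calls concerned genes dim in both. Scaling mattered for the balance. With array medians set equal, the median gene moved from 0.05 to -0.12 and the counts became 1224 higher and 3267 lower; with quantile normalization they became 1644 and 2542, with the median gene at -0.08.

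**Figure D1:**
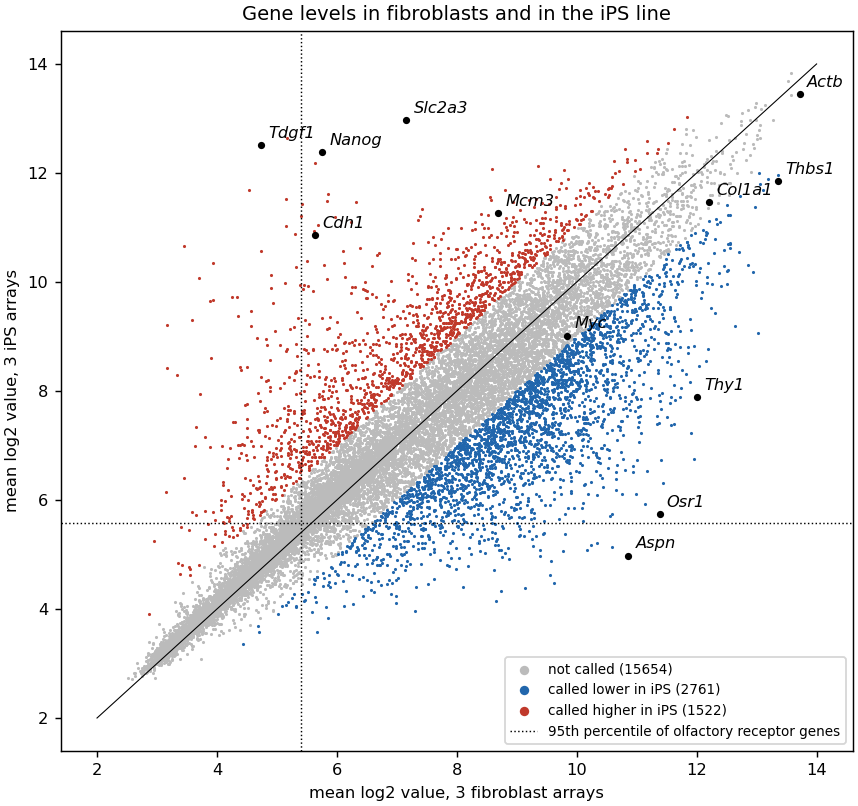
Mean log2 level of each of 19937 genes on the 3 fibroblast arrays (x axis) and the 3 iPS arrays (y axis), with genes called higher in iPS cells in red (1522), lower in blue (2761) and others in grey; dotted lines mark the 95th percentile of olfactory receptor genes in each group. Nanog and Tdgf1 stand at the upper left, Aspn and Osr1 at the lower right, and Col1a1 and Actb near the diagonal.

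The factors used for reprogramming were themselves unevenly expressed in the established line. Sox2, partner of Oct4, read 5.13, 5.10 and 5.22 on the fibroblast arrays and 11.51, 11.52 and 11.54 on the iPS arrays, so it went from dim to bright on every array, a rise of at least 70.0-fold against the dim level. Tet1, which oxidises 5-methylcytosine, read 8.18, 8.07 and 8.05 in fibroblasts and 10.55, 10.58 and 10.52 in iPS cells, a 5.45-fold rise. Klf4 rose 2.78-fold, from 8.49 ± 0.09 to 9.96 ± 0.10 (SD, n = 3 each). Myc went the other way: its values were 9.79, 9.80 and 9.92 in fibroblasts and 8.94, 9.04 and 9.07 in iPS cells. That difference of -0.82 ± 0.08 (SE) did not reach 2-fold, although the arrays did not overlap (limma, Benjamini-Hochberg adjusted p = 1.78e-06). The array does not tell an introduced copy from the gene of the cell.

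All 18 listed core and naive pluripotency factors were higher in iPS cells, against 7.63% of all genes, with a median log2 difference of 3.49 where the median over all genes was 0.05. Pou5f1, which was not introduced, read 5.89, 5.37 and 5.65 in fibroblasts and 12.15, 12.17 and 12.23 in iPS cells. It rose 93.7-fold from the edge of the dim level (log2 difference 6.55 ± 0.12 SE; limma, Benjamini-Hochberg adjusted p = 9.85e-12). Nanog, whose promoter is shown above, read 5.67, 5.91 and 5.71, then 12.38, 12.44 and 12.32, a rise of 98.3-fold. The groups of both genes were more than 6 log2 units apart, and the 3 iPS values of each lay within 0.2 of one another. Nr0b1, an orphan nuclear receptor of the naive network, rose at least 78.4-fold from a dim level to 11.69 ± 0.26. Tfcp2l1, a target of LIF signalling, went from 5.41 to 11.44, Utf1 from 5.85 to 11.61, and the orphan receptor Esrrb rose at least 44.7-fold to 10.88. The lowest differences in the list belonged to Gbx2 at 1.38, Sox15 at 1.67 and Tbx3 at 2.17, of which Tbx3 was already at 8.39 in fibroblasts. Klf2 and Klf5, relatives of Klf4, rose by 2.39 and 2.83.

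Of 32 other genes tied to the pluripotent state 29 were higher and 0 lower. Tdgf1, the Nodal co-receptor, read 4.76, 4.81 and 4.65 in fibroblasts and 12.60, 12.43 and 12.48 in iPS cells, at least 138.1-fold. Dppa5a, an RNA-binding protein of early embryos, rose at least 151.2-fold to 12.64 ± 0.06, the largest bound of the genes named here. Bex1 rose at least 38.4-fold, the F-box gene Fbxo15 at least 31.1-fold and Dppa2 at least 49.4-fold. The RNA-binding protein Lin28a rose by 4.23 and Sall4, a zinc finger partner of Oct4, by 4.47. The 3 members not called were the Nodal inhibitor Lefty1 (0.96), the remodeller Chd7 (0.93) and Otx2 (0.59), a factor of the later epiblast. Of 21 formative and primed epiblast genes, those of that later state, 7 were higher and 2 lower, where 7.63% and 13.8% of all genes were. The difference from the naive list was not tested. Dnmt3b rose by 3.48 and Eomes by 2.13, while Fgf5 stood at 7.0 in fibroblasts and 6.5 in iPS cells and Pou3f1 differed by 0.14, both not called.

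**Figure D2:**
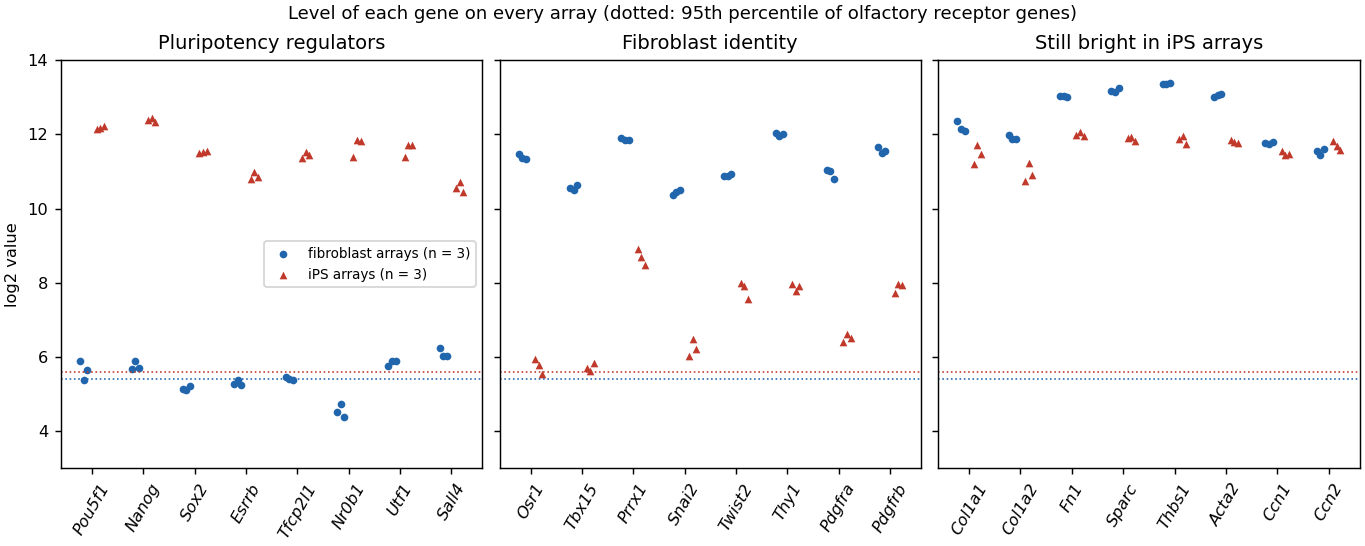
Log2 level (y axis) of 24 genes on each fibroblast array (blue circles, n = 3) and each iPS array (red triangles, n = 3), with dotted lines at the 95th percentile of olfactory receptor genes. The pluripotency regulators go from near the dotted lines to between 10.46 (Sall4) and 12.44 (Nanog), the identity genes fall to between 5.53 (Osr1) and 8.91 (Prrx1), and Ccn2 and Col1a1 stay above 10 in both groups.

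Beside these lists the rule for the largest changes named Calcoco2, Usp17ld, Slc2a3 and Zfp980. Calcoco2 encodes an autophagy receptor and was at least 35.9-fold higher, and the zinc finger gene Zfp980 at least 18.99-fold. Usp17ld belongs to a family of near-identical deubiquitinase genes, so which copy it reports is uncertain. It read 4.92, 5.47 and 5.79 in fibroblasts and 11.14, 11.24 and 11.25 in iPS cells. Slc2a3, a high-affinity glucose transporter, rose 56.0-fold, from 7.16 ± 0.13 to 12.96 ± 0.04 (SD, n = 3 each). Of 27 listed genes of the 2-cell embryo 16 were analysed, and Dux, Tcstv1, Zscan4c, Zscan4d and Zscan4f were not among them. Of the 16 genes 10 were higher and 1, Snai1, lower, where 7.63% and 13.8% of all genes were. Only 4 of the 10 remained called when values were floored at the dim level.

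Epithelial organisation rose in part. Of 38 epithelial junction genes 20 were higher (background 7.63%) and 1 lower. Cdh1, the E-cadherin of adherens junctions, read 5.42, 5.66 and 5.81 in fibroblasts and 10.76, 10.92 and 10.89 in iPS cells. This was a 37.5-fold rise from the edge of the dim level. Its mesenchymal counterpart Cdh2, N-cadherin, fell 14.2-fold, from 11.15, 10.99 and 11.05 to 7.65, 7.01 and 7.05. The 2 cadherins changed places without any overlap between groups. Epcam rose at least 16.7-fold, the protease inhibitor Spint2 by 4.23 and the keratin Krt8 by 2.75, whereas desmoplakin (Dsp), at 0.56, and plakophilin 2 (Pkp2), at -0.08, were not called. P-cadherin, Cdh3, fell by 2.20.

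Of 25 regulators of DNA methylation 12 were higher and 5 lower, where 7.63% and 13.8% of all genes were. Dnmt3l, the cofactor of de novo methylation, rose 41.0-fold, from 5.69, 5.74 and 5.61 to 11.09, 11.06 and 10.97. The enzymes Dnmt3b and Dnmt3a rose by 3.48 and 1.73, and the maintenance enzyme Dnmt1 differed by 0.64, which was not called. Within the TET family Tet1 and Tet2 rose by 2.45 and 2.56 while Tet3 fell by 1.59, from 8.12, 7.82 and 7.81 to 6.06, 6.59 and 6.33. The KAP1 corepressor Trim28 rose by 1.61 and its partner Zfp57, which protects imprints, by 2.03. Of 34 Polycomb genes 10 were higher and 4 lower, the lower share being near that of all genes. Accessory and core subunits of PRC2 rose, namely Mtf2 by 2.94, Jarid2 by 2.64, Eed by 2.08 and Suz12 by 1.26, and the catalytic Ezh2 differed by 0.37, not called. Of the PRC1 genes Cbx7 rose by 2.57, and Bmi1 and Yaf2 were 2 of the 4 that fell, by 1.52 and 2.40.

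Of 45 germ-line genes 18 were higher and 0 lower, where 7.63% and 13.8% of all genes were. The list median was 0.74, and 29 of the 45 were above the dim level in either group. The tudor protein gene Tdrd12 rose at least 15.8-fold, from 4.39, 4.37 and 4.31 to 9.44, 9.23 and 9.45. Of those with an E-box shown above, Stag3 read 5.77, 5.89 and 5.69, then 7.49, 7.66 and 7.49, and Ddx4 was at least 1.80-fold higher. Sycp3 stayed dim in iPS cells, at 5.41, 5.40 and 5.71, so its call has no interpretable fold. Mael read 5.34, 6.37 and 5.65 on the iPS arrays, a wide spread for this line. The meiotic programme was mixed. Its members Sycp1, Sycp2 and Smc1b stayed below the dim level in both groups. Other meiotic genes rose from dim to above it, with Dmc1 at least 3.37-fold higher, Hormad2 at least 3.62-fold and Rec114 at least 3.13-fold.

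The polycistronic miR-17 cluster held every analysed row of the microRNA lists that rose to above the dim level. These array rows read the hairpin region of the transcript, not the mature microRNA. The mature products are grouped by their seed, bases 2 to 8, in capitals, because members with 1 seed share target sites; the sequences and positions on chromosome 14, plus strand, are from RefSeq (GRCm38.p6). The positions are chr14:115043684-115043706 for miR-17-5p, chr14:115044183-115044205 for miR-20a-5p, chr14:115043867-115043889 for miR-18a-5p, chr14:115044048-115044070 for miR-19a-3p and chr14:115044358-115044380 for miR-19b-3p. The first pair shares a seed, miR-18a differs from it within the seed, and the miR-19 pair shares another.
miR-17-5p: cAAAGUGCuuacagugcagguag
miR-20a-5p: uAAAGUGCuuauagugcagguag
miR-18a-5p: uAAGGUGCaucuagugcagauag
miR-19a-3p: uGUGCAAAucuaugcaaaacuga
miR-19b-3p: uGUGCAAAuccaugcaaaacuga
The row of Mir20a read 3.82, 3.40 and 3.66 in fibroblasts and 6.99, 6.97 and 6.99 in iPS cells, at least 3.00-fold higher. Mir18 was at least 4.25-fold higher, Mir19b-1 at least 3.38-fold and Mir19a at least 1.69-fold. Mir17 and the host transcript Mir17hg ended close to the dim level, at 5.63 and 6.23. Of 23 listed rows of embryonic clusters 11 were analysed. The rows Mir290 to Mir295 of the embryonic miR-290 cluster were not among them, so that cluster was not assessed. Of the 11 rows 7 were called higher, of which 3 remained when values were floored at the dim level. Mir302b stayed dim in both groups. Of 31 rows of mesenchymal and let-7 microRNAs 0 were higher and 1, Mir145a, was lower.

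**Figure D3:**
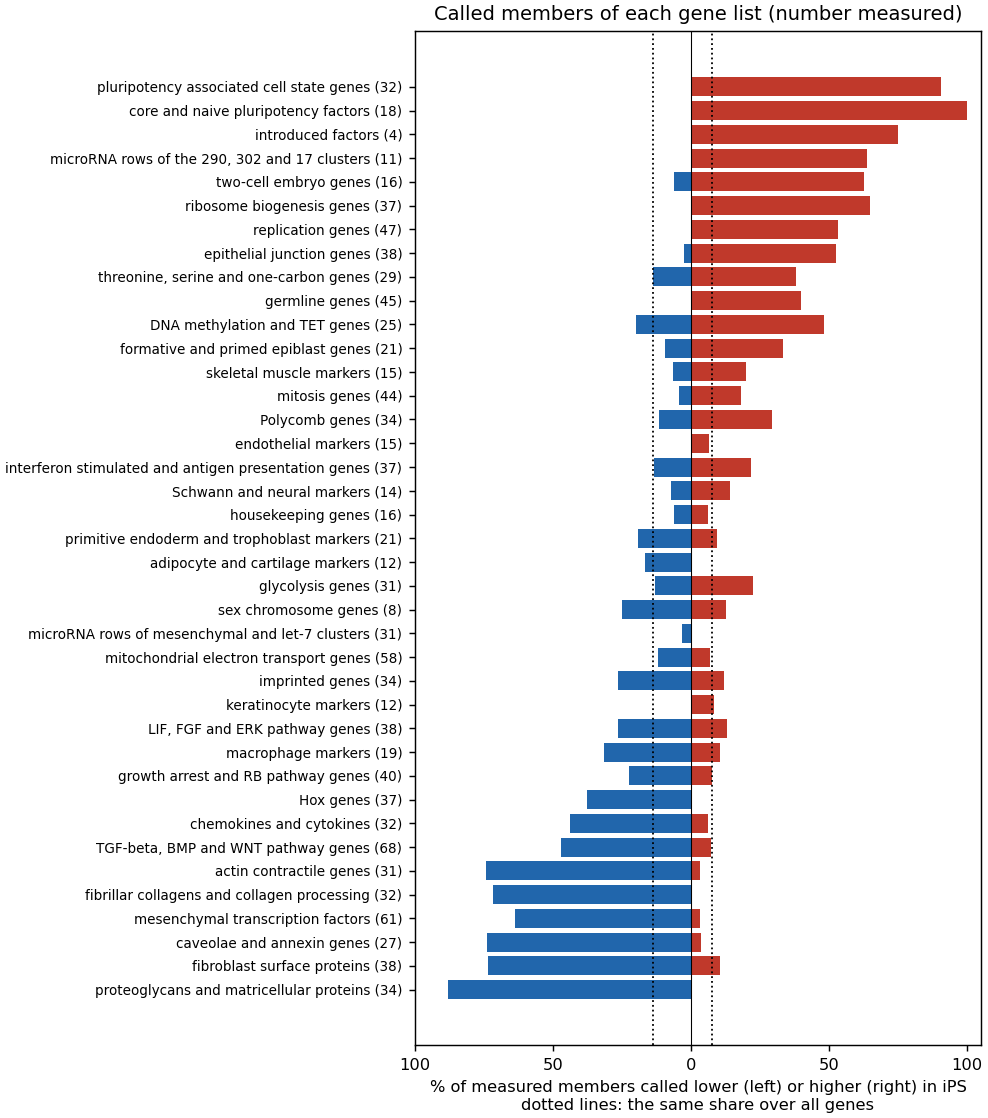
Share of the measured members of each of 39 gene lists called higher (red, to the right) or lower (blue, to the left) in iPS cells, with the number measured in brackets and dotted lines at the shares over all genes, 7.63% and 13.8%. Lists are ordered by their median difference, from proteoglycans at the bottom to pluripotency associated genes at the top.

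Transcription factors that define mesenchymal cells fell to different depths. Of 61 members 39 were lower, against 13.8% of all genes, and 2, Epas1 and Klf9, were higher; the list median was -1.78. Osr1, a factor of connective tissue and limb mesenchyme, read 11.46, 11.36 and 11.33 in fibroblasts and 5.94, 5.77 and 5.53 in iPS cells, a 49.7-fold fall to the edge of the dim level. Tbx15 fell 28.8-fold and Meox2, a homeobox factor, at least 9.74-fold. Among the EMT factors Snai2 fell 18.3-fold, Snai1 9.96-fold, Zeb1 7.92-fold, Zeb2 8.28-fold, Twist2 8.47-fold and Twist1 3.60-fold. Prrx1 fell 8.97-fold but still read 8.91, 8.70 and 8.48 in iPS cells. Of the members not called, Tcf21, Alx1 and Dlx5 stood at or near the dim level in both groups and differed by 0.07, -0.04 and 0.01.

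Hox genes, which record position along the body, fell in part. Of 37 members 14 were lower and 0 higher, where 13.8% and 7.63% of all genes were. In the A cluster all 4 measured members from paralog 8 to 13 fell, and 0 of 6 from paralog 1 to 7. In the D cluster 4 of 6 and 0 of 3 fell, in the C cluster 4 of 6 and 2 of 3, and in the B cluster 0 of 2 and 0 of 7. Hoxd13, the most distal member, read 8.63, 8.61 and 8.53 in fibroblasts and 5.20, 5.45 and 6.06 in iPS cells, at least 7.19-fold lower. Hoxc6 fell 6.28-fold, and Hoxb9, at 8.41 and 7.56, did not reach 2-fold. The difference between paralog ranges was not tested.

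Matrix genes fell widely and unevenly. Of 34 proteoglycan and matricellular genes 30 were lower and 0 higher, with a median of -2.78, the lowest of all lists. The small leucine-rich proteoglycans bind collagen fibrils: Aspn read 10.71, 10.91 and 10.96 in fibroblasts and 4.99, 5.07 and 4.87 in iPS cells, at least 38.7-fold lower, and Lum was at least 16.4-fold lower. Ogn and Fmod were at least 13.3-fold and 13.96-fold lower. Their relative Dcn fell 7.93-fold but stayed at 8.53 ± 0.21. Thbs1, Sparc and Fn1 fell 2.85-fold, 2.48-fold and 2.04-fold. The immediate early matricellular genes Ccn1 and Ccn2 differed by -0.27 and 0.16 and were not called.

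Of 32 collagens and collagen-processing genes 23 were lower and 0 higher, with a median of -1.75. P4ha3, a prolyl hydroxylase subunit, fell 36.8-fold, from 11.08, 11.12 and 11.20 to 6.02, 5.81 and 5.97. The 4 lysyl oxidase genes analysed, without Loxl2, fell: Loxl3 by 3.78, Loxl1 by 3.48, Loxl4 by 2.53 and Lox by 1.93. The type VI chain Col6a2 fell by 3.10 and the type V chain Col5a1 by 1.15. The type I chains, which make up most fibrillar collagen, were among the 9 members not called. Col1a1 read 12.36, 12.15 and 12.10 in fibroblasts and 11.20, 11.71 and 11.48 in iPS cells, a difference of -0.74 ± 0.12 (SE), and Col1a2 differed by -0.95 ± 0.11. Neither reached 2-fold, though neither had overlapping arrays.

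**Figure D4:**
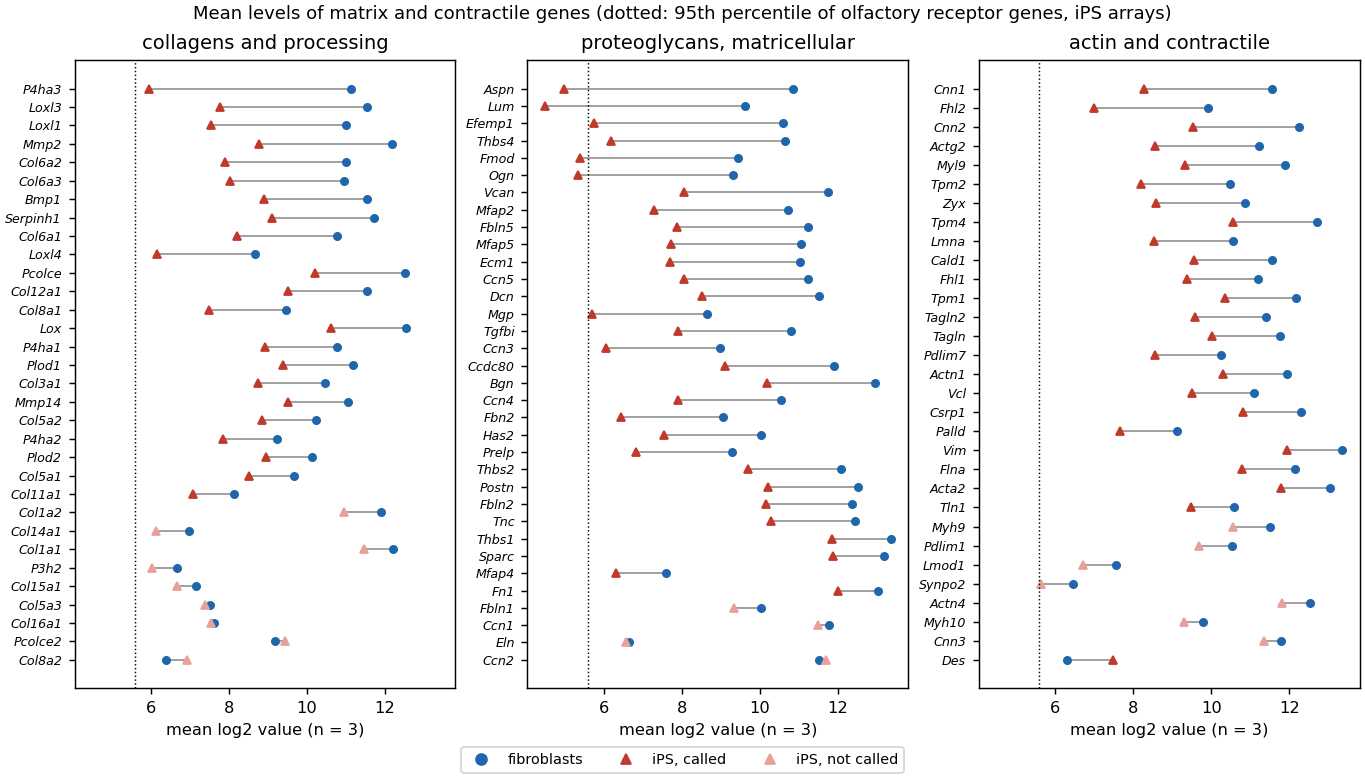
Mean log2 level (x axis, n = 3 arrays per group) of each measured gene of 3 lists in fibroblasts (blue circles) and iPS cells (red triangles, pale where not called), ordered by the difference; the dotted line is the 95th percentile of olfactory receptor genes on the iPS arrays. Aspn and Lum end below the line, whereas Col1a1, Fn1 and Acta2 end above 11.

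Of 31 actin and contractile genes 23 were lower and 1, Des, higher, with a median of -1.64. Calponin 1 (Cnn1) fell most, from 11.52, 11.56 and 11.56 to 8.27, 8.30 and 8.25. The genes with a CArG box shown above fell by 2.93 for Fhl2, 2.72 for Cnn2, 2.56 for Myl9 and 1.84 for Fhl1. Smooth muscle actin, Acta2, fell 2.39-fold and still read 11.85, 11.78 and 11.75. Of 27 caveola and annexin genes 20 were lower and 1, Cd9, higher, with the caveolin Cav1 down 15.7-fold and the calcium-binding protein S100a4 down 35.1-fold.

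Surface proteins of fibroblasts fell in 28 of 38 cases, with a median of -2.46. The receptor Pdgfra went from 10.94 in fibroblasts to 6.41, 6.62 and 6.50 on the iPS arrays, a 21.6-fold fall. Thy1, often used to sort cells that leave the fibroblast state, fell 17.3-fold, from 12.03, 11.96 and 12.01 to 7.97, 7.79 and 7.91. The 4 members that rose were Dpp4, Bst2, Icam1 and Mme, with Dpp4 at least 7.01-fold higher. Fap stayed close to the dim level in fibroblasts, at 5.66.

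Several fibroblast genes thus stayed bright on the iPS arrays, and of the 2 groups the iPS line alone was grown on feeder MEFs. Of the 10 fibroblast markers the iPS levels relative to fibroblasts ranged from -0.74 for Col1a1 to -4.43 for Pdgfra on the log2 scale. Among the iPS arrays Col1a1 and Col1a2 were both lowest on the first array and highest on the second, with Col1a2 at 10.74, 11.22 and 10.91, while Prrx1 was highest on the first. The part of feeder RNA in these levels was not tested. In such bulk RNA, fewer cells of a type and less RNA per cell cannot be told apart.

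The rule for the largest falls also named 8 genes not described above. Olfml3, a secreted olfactomedin-like protein, read 11.89, 11.99 and 11.98 in fibroblasts and 6.46, 6.94 and 6.88 in iPS cells, a 36.5-fold fall. The matrix glycoprotein Efemp1 fell 28.9-fold, to 5.74 ± 0.08 (SD, n = 3), and the heparin-binding growth factor Ptn 29.4-fold, to 6.11 ± 0.26. The other 5 ended below the dim level. Serpina3n, a secreted protease inhibitor, was at least 26.8-fold lower, Csgalnact1, which starts chondroitin sulfate chains, at least 25.1-fold, and Medag at least 23.9-fold. Ly96, the co-receptor of Tlr4, was at least 15.7-fold lower and the caspase Casp12 at least 11.7-fold.

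Signalling genes are given by example and by count. Among ligands of the FGF family the pluripotency ligand Fgf4 rose 11.4-fold while the mesenchymal ligands Fgf7 and Fgf2 fell by 4.26 and 2.28 on the log2 scale, and the receptor Fgfr1 fell by 1.98. The ERK feedback genes Spry2 and Etv5 rose by 2.18 and 2.15. The LIF receptor Lifr differed by 0.57, not called, whereas the shared receptor chain Il6st fell 7.48-fold, Jak1 3.05-fold and Stat3 2.48-fold, in cells that were grown with LIF. In all, 5 of 38 LIF, FGF and ERK genes were higher and 10 lower, where 7.63% and 13.8% of all genes were. Of 68 TGF-beta, BMP and WNT genes 5 were higher, near the share over all genes, and 32 lower. The embryonic ligand Nodal and its inhibitor Lefty2 rose 12.9-fold and at least 20.0-fold. Tgfb3 read 10.66, 10.68 and 10.67 in fibroblasts and 6.61, 6.63 and 6.67 in iPS cells, a 16.3-fold fall, and the receptor Tgfbr2 fell 8.10-fold. The WNT ligand Wnt5a fell by 3.07 and the receptor Lgr5 was at least 11.02-fold lower, while the WNT target Axin2 rose by 1.43.

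Replication and mitosis genes are given side by side. Of 47 replication genes 25 were higher and 0 lower, with a median of 1.05, while of 44 mitosis genes 8 were higher and 2 lower, with a median of 0.32. Over all genes 7.63% were higher and 13.8% lower. Mcm3, a helicase subunit, read 8.74, 8.57 and 8.77 in fibroblasts and 11.26, 11.27 and 11.27 in iPS cells, a 5.95-fold rise. The genes with an E2F motif shown above rose 5.53-fold for Uhrf1, 4.81-fold for Orc1, 3.99-fold for Cdc6 and 3.86-fold for Mcm6. The ribonucleotide reductase genes Rrm1 and Rrm2 were not called, at -0.09 and 0.66. Among mitosis genes Mybl2 and the separase Espl1 rose by 2.87 and 1.94. The proliferation marker Mki67 and the mitotic factor Foxm1 fell by 1.04 and 1.02, close to the threshold, and quantile normalization left neither called. The difference between the 2 lists was not tested. The fold threshold weighs on these counts, since 16 replication genes and 5 mitosis genes passed limma's test against 2-fold.

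Of 40 growth arrest and RB pathway genes 9 were lower, 3 higher and 28 not called, where 13.8% of all genes were lower and 7.63% higher. Cdkn1a and Trp53 are not among the 40 and were not analysed here. Rb1, the retinoblastoma protein, fell 4.13-fold to the edge of the dim level, from 7.97, 7.99 and 7.90 to 5.82, 5.93 and 5.97. The CDK4/6 inhibitor Cdkn2c fell 7.57-fold and Cdkn2b 3.48-fold, and the cyclin Ccnd2 fell 3.38-fold. Cdkn2a, at 8.4 and 8.0, was not called, and Cdk2 rose by 1.56. Ribosome biogenesis genes rose too: of 37 ribosome biogenesis genes 24 were higher and 0 lower, with a median of 1.14, and the largest difference was 2.07 in Tsr1. Nucleolin (Ncl) rose 2.28-fold and nucleophosmin (Npm1) 2.66-fold. The rises in this list were many and small, and with array medians set equal 17 remained called.

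**Figure D5:**
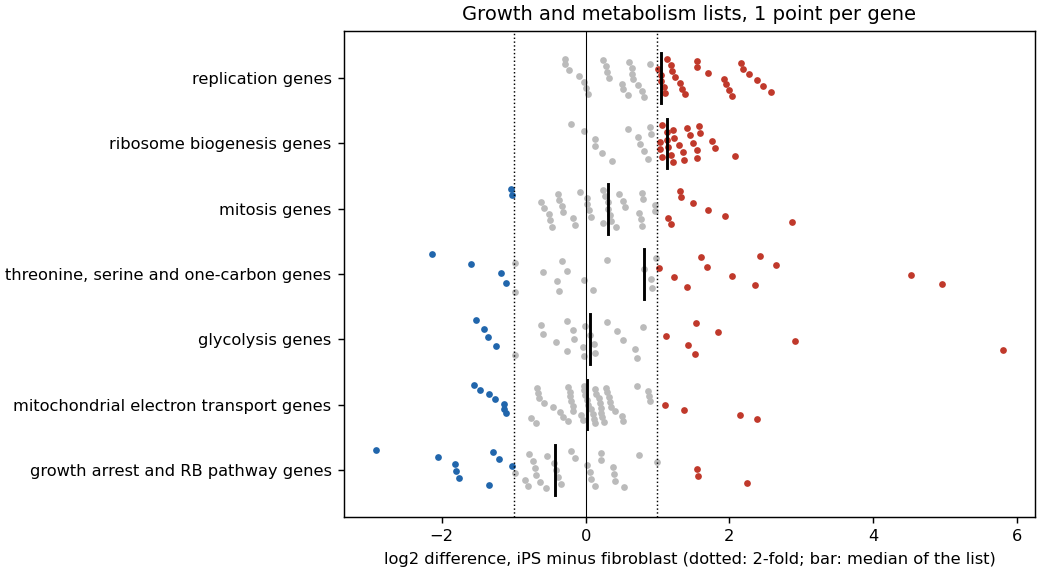
Log2 difference, iPS minus fibroblast, of each measured gene of 7 lists (x axis, 1 point per gene; red called higher, blue called lower, grey not called), with dotted lines at 2-fold and a bar at the median of each list. The medians are 1.05 for replication, 1.14 for ribosome biogenesis, 0.32 for mitosis and -0.42 for growth arrest genes.

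Metabolic changes are described by pathway. Of 31 glycolysis genes, Gapdh, Eno1 and Gpi1 not being among those analysed here, 7 were higher and 4 lower, with a median of 0.07. Over all genes 7.63% were higher and 13.8% lower, so the lower count was near that share. Among the glycolysis genes that rose were the transporter gene Slc2a3, by 5.81, the hexokinase gene Hk2, by 2.91, and the phosphofructokinase gene Pfkp, by 1.85. Of the later enzymes Pkm and Aldoa were not called, with Pkm at 12.0 in both groups and Aldoa at 12.5 and 12.6. The lactate exporter Slc16a3 fell by 1.52, the importer Slc16a1 rose by 1.42, and the pyruvate dehydrogenase subunits Pdha1 and Pdhb rose while their kinases Pdk2 and Pdk3 fell. Amt and Gldc, of the glycine cleavage system, were among the one-carbon genes that rose. Amt read 5.24, 5.27 and 5.42 in fibroblasts and 10.15, 10.27 and 10.38 in iPS cells, at least 29.1-fold higher. Gldc went from 5.79 to 10.32, a 23.1-fold rise. Of 29 threonine, serine and one-carbon genes 11 were higher and 4 lower, the lower share again being near that of all genes. Among those that rose was Shmt1, by 2.65, with its mitochondrial counterpart Shmt2 at -0.99, not called. Of 58 electron transport genes 4 were higher and 7 lower, close to the shares over all genes. The 2 that rose most, Cox7a1 and Cox6b2, are tissue-restricted isoforms of cytochrome oxidase.

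Immune genes were mixed. Of 32 chemokines and cytokines 14 were lower and 2 higher, the higher share being near the 7.63% of all genes. Ppbp was at least 32.2-fold lower, the monocyte factors Csf1 and Ccl7 fell by 3.24 and 2.80, and the acute phase gene Saa3 rose by 3.84. Of 37 interferon-stimulated and antigen presentation genes 8 were higher and 5 lower, the lower share being near the 13.8% of all genes. Bst2 and the class I gene H2-Q4 rose by 2.57 and 2.35. Markers of macrophages, a cell type that can accompany primary fibroblasts, stood above the dim level in fibroblasts for 9 of 10 genes. In iPS cells 8 of the 10 did. Of all 19937 genes 13310 stood above it in both groups, a further 756 in fibroblasts alone and 435 in iPS cells alone. Lyz2 read 9.17, 9.26 and 9.10 in fibroblasts and 5.89, 6.25 and 5.99 in iPS cells, and Cd53 was at least 6.23-fold lower, whereas Cd68 and Laptm5 rose by 2.10 and 2.47. The summed level of the 10 was 1859 to 1988 on fibroblast arrays and 2584 to 2972 on iPS arrays, the defining gene Ptprc being dim in both groups. Their part in the lower chemokine genes was not tested.

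Markers of other lineages were counted against the 7.63% higher and 13.8% lower over all genes. Of 15 endothelial genes 0 were lower and 1 was higher, Pecam1, an adhesion molecule also found on embryonic stem cells, at least 10.9-fold. Of 15 skeletal muscle genes 3 were higher and 1 lower, of 12 keratinocyte genes 1 was higher, and of 21 primitive endoderm and trophoblast genes 2 were higher and 4 lower. Of 14 Schwann and neural genes 2, Erbb3 and Olig2, were higher and 1, Map2, lower, and the summed level of the 2 measured Schwann markers, of 4 listed, was 132.5 to 149.9 on fibroblast arrays and 497.1 to 665.7 on iPS arrays. Of 12 adipocyte and cartilage genes 2, Fabp4 and Sox9, were lower. The trophoblast factors Cdx2, Elf5 and Hand1 differed by 0.40, 0.09 and 0.19 and were not called.

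Imprinted genes and sex chromosome genes were followed because both can differ between lines. Of 34 imprinted genes 4 were higher and 9 lower, where 7.63% and 13.8% of all genes were. Meg3, silenced in some iPS lines, read 10.11, 9.88 and 9.88 in fibroblasts and 10.41, 10.32 and 10.28 in iPS cells, a difference of 0.38 ± 0.15 (SE; limma, Benjamini-Hochberg adjusted p = 0.0537), not called. Its neighbour Dlk1, expressed from the other parental allele, fell 7.73-fold, and the growth factor gene Igf2 fell 4.99-fold. Zdbf2 rose at least 13.2-fold and Phlda2 by 2.87. The Y-linked genes Uty and Kdm5d fell, Uty from 8.34, 8.31 and 8.36 to 6.45, 6.28 and 6.31, while the Y-linked Eif2s3y differed by 0.28, near the dim level in both groups. Of the 8 sex chromosome genes analysed 1, Xist, was called higher and 2 lower, where 7.63% and 13.8% of all genes were. Xist stayed dim in both groups, at 4.1 and 5.4, so its call has no interpretable fold. The Y-linked Uba1y, outside that list, went the other way from Uty and was at least 3.31-fold higher.

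The spread between arrays was small, with a median SD of 0.07 among fibroblast arrays and 0.11 among iPS arrays (n = 3 each), and correlations across genes, which are not independent replicates, of 0.9978 to 0.9984 and 0.9948 to 0.9961. Among named genes above the dim level, Pramel19 varied most on the iPS arrays, at 6.35, 6.98 and 7.65, followed by C1qtnf1 (SD 0.57) and Orai2 (0.56). On the fibroblast arrays Pcgf1 varied most, at 7.56, 8.01 and 8.71, and 2 interferon-stimulated genes varied together, Ifit3 at 5.49, 6.44 and 5.98 and Ifit1 at 5.74, 6.57 and 6.24. The same value, to every digit kept, stood on all 3 arrays of a group for 399 genes in fibroblasts and 217 in iPS cells, among them the keratin gene Krt19 at 7.73 on every iPS array, which may hide part of the spread. Of these 26 and 5 were called.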

How the data were processed

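RNA from 9 samples was hybridised to an Affymetrix mouse whole-transcript array, 1 array each. The authors deposited log2 values for 34760 array rows; how they were normalized is not given in the sources used here, and no further scaling was applied. Of these rows 21640 carried 1 gene symbol in the platform's probe table, 1321 several, and 11799 were not listed. Each gene was read from the row that was brightest on average across all arrays (19937 genes, 954 with several rows, 7 of these with rows called in opposite directions). All groups entered 1 limma model (version 3.58.1, R 4.3.3; lmFit and eBayes), with Benjamini-Hochberg adjustment over all genes, and the code was tested on simulated data. Precision is limited by the 3 arrays in each group. For an "at least" fold, each array's value was raised to its olfactory 95th percentile where it lay below. The members and the 39 lists (1112 measured genes) were chosen with earlier results of these data known. The text names, from called genes with no overlap between arrays, the 15 that rose furthest and the 15 that fell furthest, without clone, predicted or small RNA names, the 5 largest of each above the dim level in both groups, the introduced factors with Pou5f1 and Nanog, and examples from the 10 most variable genes per group and from the lists; ranks follow the fitted difference, also where a gene was dim. Alternatives covered the samples, scaling, rows per gene, dim genes and threshold.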

Additional observations from a re-analysis of the deposited data

Results flagged for a closer look

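Array rows outside the named genes also differed between the groups in part, in both directions. Of 6573 rows that the probe table does not list and whose row numbers lie below the first listed row, 1095 (16.7%) were higher in iPS cells and 410 lower, against 7.95% and 13.5% of rows with 1 symbol and 12.9% and 4.84% of the 1321 listed rows without exactly 1 symbol. Of the 6573, 3231 were above the dim level in either group. Of the 5226 other unlisted rows 379 (7.25%) were higher and 183 lower, and 2635 were above the dim level in either group. What these rows measure is not given in the sources used here, and no gene is named from them.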

How the results depend on the processing

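The counts of genes higher and lower, and of list members called (535), were recomputed under 17 alternatives. Without the fold requirement 5091 genes were higher and 5792 lower (880 list members); at 4-fold 409 and 898 (275 members); limma's test against 2-fold gave 997 higher and 1976 lower. With the replicate block, 1522 were higher and 2761 lower, the same counts as without it, and no call was lost. Same-numbered fibroblast and iPS arrays did not deviate together across genes (correlations of -0.0311, -0.0293 and 0.0518). These correlations cannot tell whether same-numbered arrays were prepared together. Leaving out 1 array gave 1508 to 1549 higher, 2733 to 2791 lower and 533 to 539 members. The third fibroblast array placed with the induced arrays gave 1480 and 2654. No gene called in the main analysis was called in the opposite direction under any of these alternatives. Genes that are dim in 1 group limit the size of the largest changes.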
